A study of Homo sapiens with 6 samples.

Results

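Narrow accessible sites that were called in every library are described here, in ventricular-like heart muscle cells derived from H9, a line of human embryonic stem cells. Joining all peaks of the 6 libraries that had 1 bp or more in common gave 157560 regions. Of these, 28749 held a peak from all 6 libraries, and 27889 of those lay on chromosomes 1 to 22. The 3980 that were under 500 bp wide are the narrow shared sites, 14.3% of the autosomal shared regions. The other 23909 are called the wider shared regions. The sites were chosen by the calls and the widths of the deposited peaks, so both are given as a description, and all 3980 entered the counts below unless another number is given.

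The cells were taken at day 15 of a ventricular cardiomyocyte differentiation, and 50000 cells were used for each library. There were 3 control libraries and 3 libraries with knockdown (KD) of ZNF436, a zinc finger protein gene, and per the labels' protocols the 3 libraries of a group were independent differentiations. Both groups came from the same cell line by the same kit, and the labels do not say how the knockdown was made or what the control cultures received. The knockdown, the cell type markers and the genes beside each site were not analysed here, because the lists name no gene and no annotation or sequence of their genome build, hg19, was used. Sites are therefore given by their hg19 position.

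Assay for transposase-accessible chromatin (ATAC-seq) reads out where the Tn5 transposase can cut DNA. Such places are stretches without a stable nucleosome, at promoters, enhancers, insulators and other bound elements. A wide accessible region often holds several bound elements or a whole promoter, whereas a narrow one can be a single bound element between nucleosomes. KRAB zinc finger proteins are best known as repressors that recruit KAP1 (TRIM28) to transposon-derived sequences, and the title of the series places the study in that setting.

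The control lists held 50719, 53662 and 68342 peaks and the knockdown lists 115864, 102454 and 87871 (replicates 1, 2 and 3). Depth is unknown, and list length cannot be told apart from the group. Each peak has a score that is the authors' own, with no stated unit, and it was used only for ranks. A list percentile is the share of peaks of the same list that a site outranks, so it moves with the length of the list. A percentile among shared regions ranks each site among the same 27889 regions in every library, so its denominator is equal in all 6.

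The narrow shared sites were small, mostly single peaks whose edges moved between libraries. Their width ran from 149 to 499 bp with a median of 416 bp, against a median of 978 bp for the wider shared regions. At 3975 of the 3980 sites every library had 1 peak, whereas 8257 of the wider shared regions (34.5%) held several peaks of some library. The stretch covered by the peaks of all 6 libraries at once had a median of 153 bp, or 39.2% of the site. It made up at least 50% of the site at 977 sites, and 31 sites had no base in common to all 6 libraries, being joined by overlapping peaks only.

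Width limits did not separate a class with sharp borders. The 280 sites of 490 to 499 bp had median list percentiles of 56.3, 57.4 and 66.2 in control and 79.4, 77.9 and 73.2 in knockdown. The 285 shared regions of 500 to 509 bp, just outside the limit, had 56.3, 61.9 and 66.2 in control and 80.4, 76.8 and 74.7 in knockdown. Sites on either side of the limit thus had nearly the same ranks.

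Within the lists, the narrow shared sites ranked in the middle in control and in the upper part in knockdown. Their median list percentile was 51.9, 51.9 and 63.2 in control replicates 1, 2 and 3, and 78.5, 75.7 and 71.6 in the knockdown replicates. All 3 knockdown values lay above all 3 control values. The means were 55.7 ± 6.52 and 75.3 ± 3.47 (SD, n = 3 each), a difference of 19.6. The wider shared regions went from 75.9 ± 3.67 to 86.5 ± 1.85 (SD, n = 3 each). Knockdown lists were the longer ones, and adding weaker peaks to a list raises the list percentile of every stronger peak. With all lists reduced to the 50719 strongest peaks and merged again, there were 2975 narrow shared sites, and their difference was 3.28.

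Ranked among the shared regions themselves, the narrow sites kept nearly the same place in both groups. Their median percentile there was 27.3, 24.7 and 26.9 in control and 29.0, 28.0 and 28.9 in knockdown. The means were 26.3 ± 1.40 and 28.6 ± 0.551 (SD, n = 3 each). The lower part of the shared regions was thus where narrow sites lay in every library, as the plot of list percentiles also shows for the deposited lists.

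**Figure D1:**
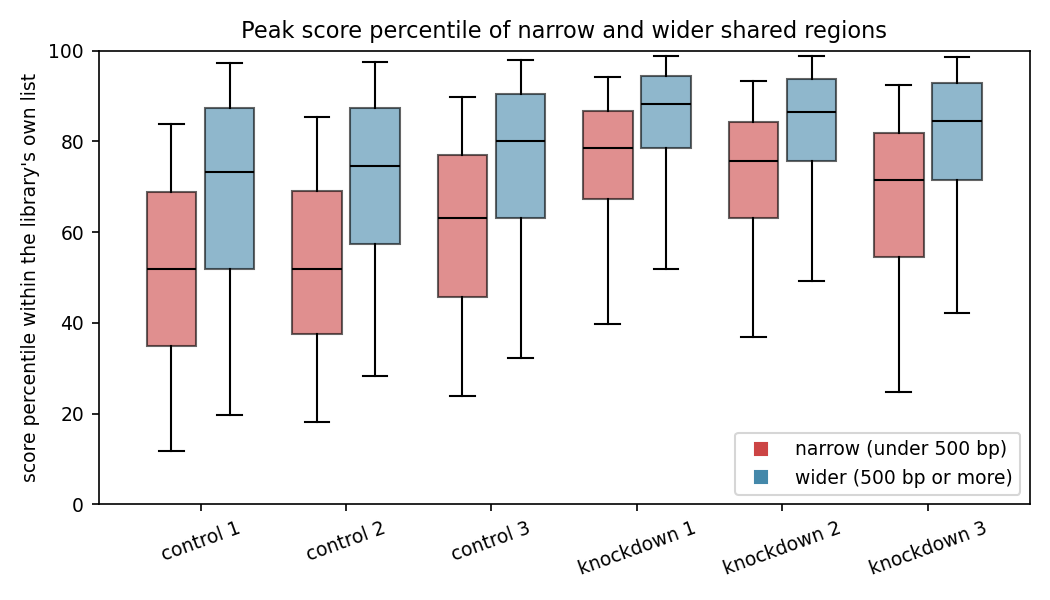
Score percentile within each library's own list (vertical axis, 0 to 100) for the 3980 narrow shared sites (red) and the 23909 wider shared regions (blue), for 3 control and 3 knockdown libraries. Boxes span the quartiles with the median as a line and whiskers the 5th to 95th percentile of regions; narrow sites had medians of 51.9 to 63.2 in control and 71.6 to 78.5 in knockdown, below the wider regions in each library.

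A small set of narrow sites was at the very top of every list. There were 32 sites (0.804%) above list percentile 99 in all 6 libraries, against 254 (1.06%) of the wider shared regions. Above percentile 90 in all 6 there were 60 narrow sites (1.51%) against 3562 wider regions (14.9%). At the other end, 87 narrow sites (2.19%) and 210 wider regions (0.878%) were below percentile 50 in every list. The 32 top sites were spread over 16 chromosomes and had a median width of 328 bp. The peaks of all 6 libraries coincided there over a median of 94.0% of the site.

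The strongest site was chromosome 1:91852783-91853234, which ranked 11, 11 and 10 in the control lists and 7, 11 and 7 in the knockdown lists. It was 452 bp wide, and 94.0% of it was covered in all 6 libraries. Its score was 161 to 566 times the median score of the narrow sites of the same list. Next came chromosome 11:85195011-85195335, at ranks 15, 16 and 13 in control and 13, 15 and 15 in knockdown. Then followed chromosome 8:70602287-70602678 (ranks 12 to 20 over the 6 lists), chromosome 1:156186231-156186726 (20 to 23) and chromosome 5:71146740-71147014 (22 to 26). At none of these 5 sites did limma call a difference (adjusted p from 0.440 to 1.00), and ranks this close to the top of the shared regions leave little room for one. Chromosome 8:70602287-70602678 ranked 19, 20 and 15 in the control lists and 15, 12 and 12 in the longer knockdown lists. No list of regions known for artefact signal was applied here, and whether these positions belong to one was not tested.

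At the weakest shared sites the overlap of the 6 peaks ranged widely. Chromosome 3:14494530-14494903 had list percentiles of 4.71, 18.1 and 6.45 in control and 10.1, 8.49 and 10.6 in knockdown, and no base of it was common to all 6 libraries. Chromosome 9:79071186-79071574 had 19.8, 28.4 and 14.9 in control and 16.6, 14.5 and 24.7 in knockdown, and 27.0% of it was common to the 6 peaks. In both, the groups overlapped. Chromosome 9:95667463-95667849, chromosome 1:21558450-21558826 and chromosome 2:160919023-160919491 completed the lowest 5, with no list percentile above 32.3. The 6 peaks had 48.1%, 2.65% and 1.28% of these 3 sites in common, against a median of 39.2% over all narrow sites.

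Agreement of the edges went with rank. Where the 6 peaks shared under 25% of the site (473 sites), the median percentile among shared regions was 13.0, 12.8 and 7.94 in control and 10.7, 11.1 and 12.2 in knockdown. Where they shared 75% or more (134 sites), it was 77.6, 78.8 and 71.8 in control and 56.2, 58.5 and 63.1 in knockdown. Sites whose edges coincided were thus the higher ranking ones in every library, and their 3 knockdown medians lay below their 3 control medians. The edge classes were built from the peaks of both groups, so a site whose knockdown peak widened could leave the 134. On average the peak was wider in knockdown at 89.2% of narrow sites. Scores go with widths, so edge class, rank and the difference between groups are linked, and these values are descriptions. By list percentile the medians of these 134 sites were 87.0, 88.3 and 87.9 in control and 88.7, 88.1 and 87.6 in knockdown, which overlap.

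Rank was highest in the narrowest class. The 26 sites under 200 bp had median percentiles among shared regions of 77.5, 83.8 and 74.9 in control and 48.7, 44.7 and 57.0 in knockdown. The 94 sites of 200 to 249 bp had 32.2, 30.9 and 28.9 in control and 29.0, 26.1 and 30.2 in knockdown. From the class of 250 to 299 bp to that of 450 to 499 bp the median went from 27.3 to 32.2, 24.7 to 30.9 and 22.9 to 30.9 in control and from 23.1 to 32.9, 24.1 to 32.1 and 21.6 to 31.5 in knockdown. Between these classes the knockdown medians did not decrease with width, whereas those of control replicates 1 and 2 did not rise steadily. Width is that of the joined peaks of both groups, so a site whose knockdown peak widened left the narrow classes, and the width class and the difference between groups are linked by the rule.

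Narrow sites called in fewer libraries were weaker in each list that held them. Among the 113852 autosomal regions under 500 bp, 58400 (51.3%) came from 1 library, 5125 (4.50%) from 5 and 3980 (3.50%) from all 6. In control replicate 1 the median list percentile was 11.7 for those of 1 library, 34.9 for those of 5 and 51.9 for those of 6. In knockdown replicate 1 it was 16.6, 67.2 and 78.5. Of the 5125 narrow regions that missed the rule by 1 library, control replicate 2 lacked the peak in 2239 (43.7%), control replicate 1 in 1914 (37.3%) and control replicate 3 in 581 (11.3%). Knockdown replicates 1, 2 and 3 lacked it in 58, 60 and 273. The 2 shortest lists therefore set most of the border of the set.

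The peaks at narrow shared sites were wider in knockdown libraries. Their median width was 215, 218 and 245 bp in control and 342, 322 and 308 bp in knockdown (226 ± 16.5 against 324 ± 17.1 bp, SD, n = 3 each), so the groups did not overlap. Over whole lists the median peak width was 290, 278 and 271 bp in control and 295, 290 and 306 bp in knockdown. Over all 27889 shared regions it was 422, 415 and 490 bp in control and 705, 662 and 629 bp in knockdown. Wider peaks in knockdown were thus not particular to narrow sites. Averaged over the libraries of a group, 3551 of the 3980 sites (89.2%) had a wider peak in knockdown and 426 a narrower one. At 1630 sites all 3 knockdown peaks were wider than all 3 control peaks, and at 31 all 3 were narrower. The shares of all shared regions that met these conditions were not counted. List length moved with these widths, and its part in them was not tested.

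Libraries of the knockdown group ranked the narrow sites more alike than control libraries did. Spearman's rho over the 3980 sites was 0.84, 0.78 and 0.75 for the pairs of knockdown libraries and 0.56, 0.56 and 0.52 for those of control libraries. Control replicate 3 correlated more with the knockdown libraries, at 0.63, 0.64 and 0.69, than with its own group. The same pairs gave 0.89 to 0.93 within knockdown and 0.83 to 0.86 within control over the wider shared regions. Scores are coarse, with 98 to 100 distinct values over the narrow sites in a control library and 110 to 131 in a knockdown library. In control replicate 2 a single value was shared by 430 sites (10.8%). Ranks of narrow sites in control thus took fewer distinct values than those in knockdown. The range over the 3 libraries of a group had a median of 20.8 percentile points in control and 14.4 in knockdown. Over the wider shared regions it was 16.0 and 11.7, so the larger range in control was not particular to narrow sites. The part of coarse scores in it was not tested.

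Between the groups, no difference in rank was called at most narrow sites. The test was limma on the ranks among all 27889 shared regions, turned into normal scores, with Benjamini-Hochberg adjustment over all of them and a threshold of 0.05. It called 78 narrow sites (1.96%) higher in knockdown, where 2.23% of all shared regions were called higher. It called 133 (3.34%) lower, against 2.74% of all shared regions. Both shares are near those of shared regions as a whole. A missing call does not show equal rank. In simulated data the fit called 16.0% of regions shifted by 1 normal-score unit and 79.0% of those shifted by 2. Scores go with widths, which the rule used, so these tests are not fully independent of the choice of the sites. The counts of higher and lower sites rested on the libraries, with 35 and 70 without control replicate 1, 40 and 74 without control replicate 2, 196 and 217 without control replicate 3, 6 and 66 without knockdown replicate 1, 15 and 89 without knockdown replicate 2 and 34 and 95 without knockdown replicate 3. They also rested on the fit, with 35 and 93 for ranks among narrow sites only, 37 and 79 on the percentile scale and 14 and 57 with limma's plain variance estimation. The shares of all shared regions were not counted for these alternatives.

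Complete separation of the groups gave the same picture. By percentile among shared regions, all 3 knockdown libraries lay above all 3 control libraries at 467 narrow sites (11.7%), against 11.3% of all shared regions. They lay below at 443 sites (11.1%), against 12.4% of all shared regions. By list percentile, all 3 lay above at 1812 sites (45.5%, against 45.6% of all shared regions) and below at 115 (2.89%, against 2.13%). List length moved with these last counts, and with lists of equal length 399 of 2975 sites were above and 292 below. The shares of all shared regions were not counted for lists of equal length.

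**Figure D2:**
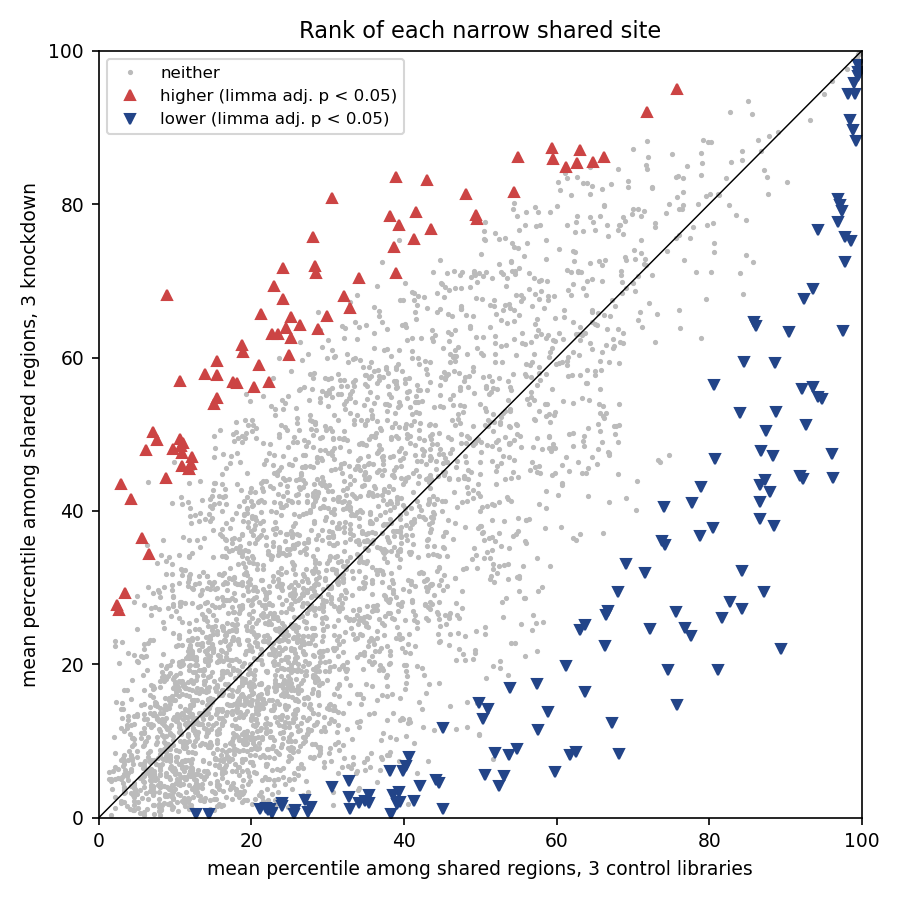
Mean percentile among the 27889 shared regions in the 3 control libraries (horizontal axis) and in the 3 knockdown libraries (vertical axis), 1 point for each of the 3980 narrow shared sites, with the line of equal rank. The 78 sites called higher (red) and the 133 called lower (blue) by limma lie at the edges of a broad cloud around that line.

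The sites that rose had control ranks near those of narrow sites as a whole. The 78 had a median over sites of 23.8 for the mean control percentile, against 27.5 over all narrow sites. For the mean knockdown percentile the 78 had a median of 63.8, against 29.1 over all narrow sites. Differences of the 78 ran from 19.1 to 59.2. Their median was 22.5, 18.6 and 26.9 in control replicates 1 to 3 and 67.3, 64.1 and 63.1 in the knockdown replicates. In all 78 the peak was on average wider in knockdown, as it was in 89.2% of all narrow sites. The median change was 134 bp for the 78 and 82.7 bp over all narrow sites. In 65 of the 78 all 3 knockdown peaks were wider than all 3 control peaks, as in 1630 of all 3980 narrow sites. Scores go with widths, so sites called for a higher score are also selected for wider peaks, and these counts are descriptions. The longest gap of a chromosome is here the longest stretch in which no library had a peak, and 1 of the 78 sites was within 3 Mb of it.

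The largest rise was at chromosome 6:83968308-83968606, a site of 299 bp. Its percentile among shared regions was 17.7, 1.27 and 7.94 in control and 70.9, 71.2 and 62.3 in knockdown. The groups lay far apart, and control replicate 2 was the lowest library. The difference was 59.2 points (control 8.97 ± 8.27, knockdown 68.2 ± 5.05, SD, n = 3 each, limma adjusted p = 0.00186). Its nearest other shared region was 36.9 kb away.

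Chromosome 5:160833820-160834289 had 17.7, 51.0 and 22.9 in control and 78.4, 77.8 and 86.1 in knockdown. Control replicate 2 stood above the other control libraries and still below every knockdown library. The difference was 50.2 points (limma adjusted p = 0.00307), and the nearest other shared region was 476 kb away. Chromosome 9:123528878-123529363 had 40.9, 30.9 and 45.3 in control and 85.9, 82.2 and 82.5 in knockdown. Its libraries were close together within each group, with a difference of 44.5 points (limma adjusted p = 0.00168).

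Chromosome 2:196478660-196479139 had 36.7, 12.8 and 34.7 in control and 78.4, 80.0 and 68.6 in knockdown, a difference of 47.6 points (limma adjusted p = 0.00548). Chromosome 10:33616601-33616992 had 27.3, 18.6 and 22.9 in control and 73.0, 71.2 and 64.0 in knockdown, a difference of 46.5 points (limma adjusted p = 0.00598). Chromosome 1:10880431-10880840 had 13.0, 3.80 and 15.1 in control and 53.1, 55.6 and 62.3 in knockdown, a difference of 46.4 points (limma adjusted p = 0.00836). In each of these 3 the control libraries were all low and the knockdown libraries were all above the middle of the shared regions.

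The other 2 of the 8 largest rises had at least 1 group with scattered libraries. Chromosome 6:50236729-50237215 had 22.5, 1.27 and 48.6 in control and 69.7, 75.2 and 70.0 in knockdown, so that its control libraries were scattered (difference 47.5 points, limma adjusted p = 0.0218). Chromosome 5:45260206-45260704 had 22.5, 18.6 and 22.9 in control and 75.9, 70.1 and 50.9 in knockdown, with knockdown replicate 3 the lowest of its group (difference 44.3 points, limma adjusted p = 0.0122). It was the 1 site that rose within 3 Mb of a longest gap. Without knockdown replicate 1, limma's adjusted p of these 2 sites was 0.0931 and 0.148, and that of the sites on chromosomes 2, 10 and 1 was 0.0543, 0.0734 and 0.0593. Without knockdown replicate 2 it was 0.102 and 0.0840 for these 2, and without knockdown replicate 3 it was 0.0753 for the site on chromosome 6 and 0.0564 for that on chromosome 1. Without control replicate 2 the site on chromosome 6 had 0.0554. With limma's plain variance estimation this site and those at 160833820 on chromosome 5 and 196478660 on chromosome 2 had 0.146, 0.0511 and 0.0522. The 8 falls stayed under 0.05 in all alternatives that could be computed for them.

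The sites that fell included high ranking, sharply bounded ones and others that ended at the bottom. The 133 had a median over sites of 73.8 for the mean control percentile and of 25.2 for the mean knockdown percentile. Their median was 75.5, 81.5 and 64.6 in control replicates 1 to 3 and 21.3, 30.0 and 23.9 in the knockdown replicates. Differences ran from -67.4 to -1.31, with a median of -37.1, so some of these falls were small. Of the 133, 31 had a mean control percentile above 90, and 46 had a mean knockdown percentile below 10. In 16 of the 133 the list percentile stayed above 90 in all 6 lists. The mean list percentile was lower in knockdown at all 133, although it was higher in knockdown at 3552 of the 3980 narrow sites. Their peaks did not widen as those of other sites did, with 41 wider and 91 narrower in knockdown on average and a median change of -15.3 bp. Scores go with widths, so this is linked to the call itself.

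The largest fall was at chromosome 1:2603160-2603516, a site of 357 bp. Its percentile among shared regions was 88.7, 95.1 and 84.4 in control and 13.9, 40.1 and 12.2 in knockdown. All control libraries were high, and knockdown replicate 2 stood above the other knockdown libraries. The difference was -67.4 points (control 89.4 ± 5.40, knockdown 22.0 ± 15.7, SD, n = 3 each, limma adjusted p = 0.000143). Its list percentile was 93.4, 97.3 and 93.3 in control and 67.2, 81.5 and 54.6 in knockdown.

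Chromosome 1:235681563-235681808 had 79.5, 84.9 and 79.1 in control and 19.4, 14.5 and 23.9 in knockdown. Both groups were tight, with a difference of -61.9 points (limma adjusted p = 0.000332). Chromosome 14:106049032-106049367 had 70.8, 73.6 and 60.0 in control and 1.92, 12.8 and 10.1 in knockdown, so that it fell to the bottom of the shared regions (difference -59.9 points, limma adjusted p = 0.00148). Chromosome 8:145180518-145180972 had 76.9, 90.6 and 77.8 in control and 23.1, 26.1 and 28.9 in knockdown, a difference of -55.7 points (limma adjusted p = 0.000746). It lay 296 bp from the next shared region, and 91.2% of it was covered in all 6 libraries.

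A pair of the largest falls was on chromosome 22, both within 3 Mb of its longest gap. Chromosome 22:18881668-18882134 had 78.2, 78.8 and 70.2 in control and 7.85, 28.0 and 8.16 in knockdown (difference -61.1 points, limma adjusted p = 0.00103). Chromosome 22:18717979-18718212 had 93.3, 93.5 and 74.9 in control and 21.3, 38.1 and 28.9 in knockdown (difference -57.8 points, limma adjusted p = 0.000400). At both, knockdown replicate 2 was the highest library of its group and control replicate 3 the lowest of its own.

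Chromosome 12:38444774-38444973, a site of 200 bp, had 82.7, 90.0 and 80.2 in control and 17.5, 30.0 and 34.1 in knockdown (difference -57.1 points, limma adjusted p = 0.000511), and it too lay within 3 Mb of a longest gap. Chromosome 5:32852459-32852949 had 79.5, 86.9 and 57.4 in control and 15.6, 32.1 and 10.1 in knockdown (difference -55.4 points, limma adjusted p = 0.00292). In the latter control replicate 3 was well below the other control libraries. At all 8 of these falls, and at all 8 of the largest rises, the groups did not overlap, which the rule for naming them required.

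**Figure D3:**
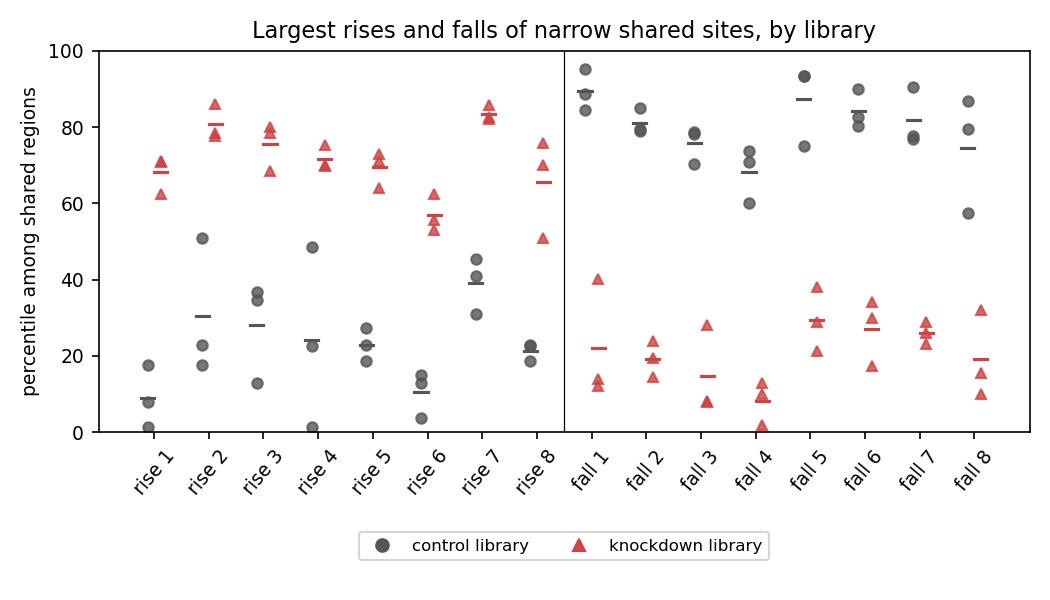
Percentile among the 27889 shared regions (vertical axis) of the 8 largest rises and the 8 largest falls, ordered by size of the difference, with 1 point for each of 3 control (grey circles) and 3 knockdown (red triangles) libraries and short lines for the group means. Rise 1 is the site on chromosome 6 that went from a mean of 8.97 to 68.2, and fall 1 the site on chromosome 1 that went from 89.4 to 22.0.

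Lower calls were concentrated beside the longest gaps, in narrow sites as in shared regions generally. Of the 204 narrow sites within 3 Mb of a longest gap, 53 (26.0%) were lower and 1 (0.490%) was higher. Among all 1490 shared regions there, 24.6% were lower and 1.74% higher. Of the 3776 narrow sites elsewhere, 80 (2.12%) were lower and 77 (2.04%) higher, against 1.50% and 2.25% of all shared regions there. Narrow sites themselves were not more frequent beside the gaps, where 13.7% of shared regions were narrow, against 14.3% elsewhere. With the regions beside the gaps left out of the fit, 56 of 3776 narrow sites were higher and 80 lower. The shares of all shared regions were not counted for that fit.

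Sharply bounded and very narrow sites had a high rate of lower calls, although most lower calls lay in other classes. Among the 134 sites where the 6 peaks had 75% or more of the site in common, 34 (25.4%) were lower and 1 was higher. With 50 to under 75% in common, 47 of 843 sites (5.58%) were lower and 20 higher, and with 25 to under 50% 42 of 2530 (1.66%) were lower and 50 higher. Among the 473 sites with under 25% in common, 10 (2.11%) were lower and 7 higher. Of the 26 sites under 200 bp, 7 (26.9%) were lower and 0 higher, and of the 94 of 200 to 249 bp 12 (12.8%) were lower and 0 higher. From 450 to 499 bp, 32 of 1305 (2.45%) were lower and 37 (2.84%) higher. The gaps move with this measure, since 24 of the 134 sites (17.9%) lay beside one, against 5.13% of all narrow sites, and their part in it was not tested. These 134 sites ranked at medians of 77.6, 78.8 and 71.8 among shared regions in control, and the 26 narrowest at 77.5, 83.8 and 74.9. Narrow sites as a whole were at 27.3, 24.7 and 26.9, and the part of rank was not tested. Over all shared regions 2.74% were lower, and wider shared regions were not counted by edge class. As the rule and the edge classes link width to the difference between groups, these counts are descriptions.

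Along the chromosomes, narrow shared sites lay scattered singly among the wider ones. The median distance from a narrow site to the nearest other shared region was 21.0 kb (quartiles 6.01 and 57.9 kb), against 15.6 kb (3.97 and 43.8 kb) for the wider shared regions. Another shared region lay within 1 kb of 295 narrow sites (7.41%) and of 2951 wider ones (12.3%). None lay within 100 kb of 559 narrow sites (14.0%) and of 2274 wider ones (9.51%). By construction, merging joins overlapping peaks into wider regions, which bears on these distances. From one narrow site to the next the median was 161 kb, and 254 sites (6.38%) had another narrow site within 10 kb.

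Following the order of shared regions along each chromosome, the next region after a narrow site was also narrow in 654 of 3974 cases (16.5%), where 14.3% of shared regions are narrow. Of 3326 unbroken runs of narrow sites, 2787 were a single site, 444 were 2 sites and 95 were 3 or more. The longest runs had 5 sites. A peak of some library that was not shared by all lay nearer, with a median of 2.87 kb from a narrow site to the nearest region of any kind.

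**Figure D4:**
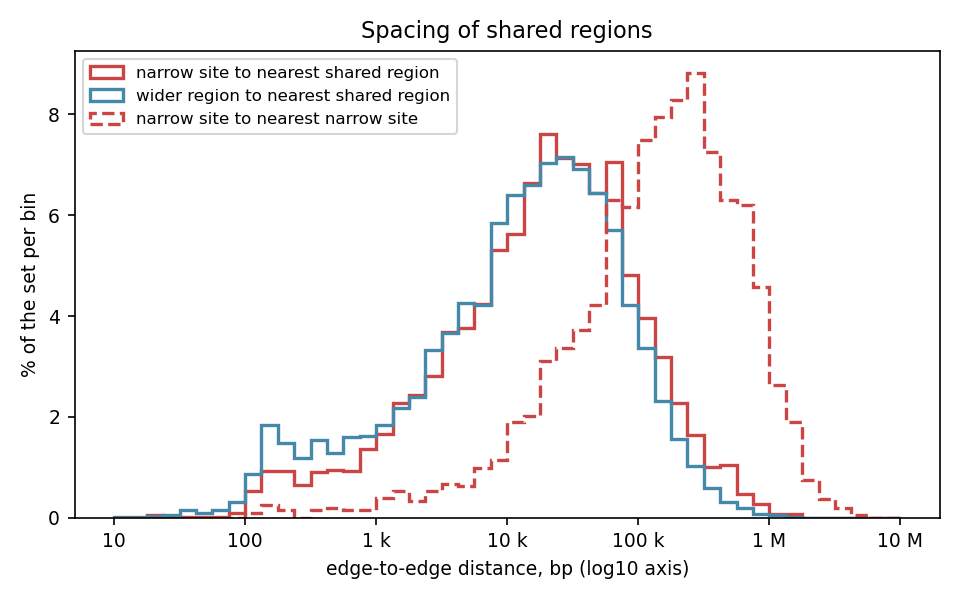
Distribution of edge-to-edge distances (horizontal axis, log10 scale in bp; vertical axis, percent of the set in each bin) from the 3980 narrow shared sites and the 23909 wider shared regions to the nearest other shared region, and from a narrow site to the nearest narrow site (dashed). The 2 solid curves overlap over most of their range, with medians of 21.0 and 15.6 kb, and the dashed one has a median of 161 kb.

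The 133 sites that fell had another shared region at a median of 7.39 kb and another narrow site within 10 kb in 34 cases (25.6%). The 78 that rose had them at 27.1 kb and in 2 cases (2.56%). Regions called in all 3 knockdown libraries and no control library were at a median of 190 kb from the sites that fell, 64.0 kb from those that rose and 61.4 kb from narrow sites as a whole. No such region lay within 1 kb of a site that fell, where 2.01% of narrow sites as a whole had one. Of the 133 sites, 53 (39.8%) lay within 3 Mb of a longest gap, against 5.13% of narrow sites as a whole. No test was made of these differences in spacing.

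All 22 autosomes held narrow shared sites, from 55 on chromosome 21 to 396 on chromosome 1. Their share of a chromosome's shared regions was highest on chromosome 7 (17.9%, 247 of 1381), chromosome 4 (17.1%, 214 of 1248) and chromosome 8 (16.2%, 190 of 1174). It was lowest on chromosome 15 (11.1%, 105 of 949), chromosome 19 (11.1%, 172 of 1554) and chromosome 17 (11.4%, 171 of 1496). Chromosome 19, known for its density of genes and of KRAB zinc finger clusters, had the closest spacing, with a median of 78.3 kb between a narrow site and the next nearest and 8.49 kb to any shared region. On chromosome 18 the distances were 311 and 42.7 kb.

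Calls were thinly spread over the chromosomes. Over all narrow sites 1.96% were higher and 3.34% lower, against 2.23% and 2.74% of all shared regions. Chromosomes 16, 19, 21 and 22 had 0 higher narrow sites. Lower there were 5 of 133 sites (3.76%), 5 of 172 (2.91%), 5 of 55 (9.09%) and 4 of 79 (5.06%). On chromosome 21, 4 of the 5 lay beside its longest gap, and on chromosome 22, 3 of the 4 did. Chromosome 18 had 4 higher of 71 and 0 lower. Chromosome 7 had 15 lower of 247 (6.07%), 9 of them beside its longest gap, and 4 higher. Chromosome 1 had 10 higher and 15 lower of 396, with 3 of the 15 beside the gap. With counts this small, differences between chromosomes were not tested.

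**Figure D5:**
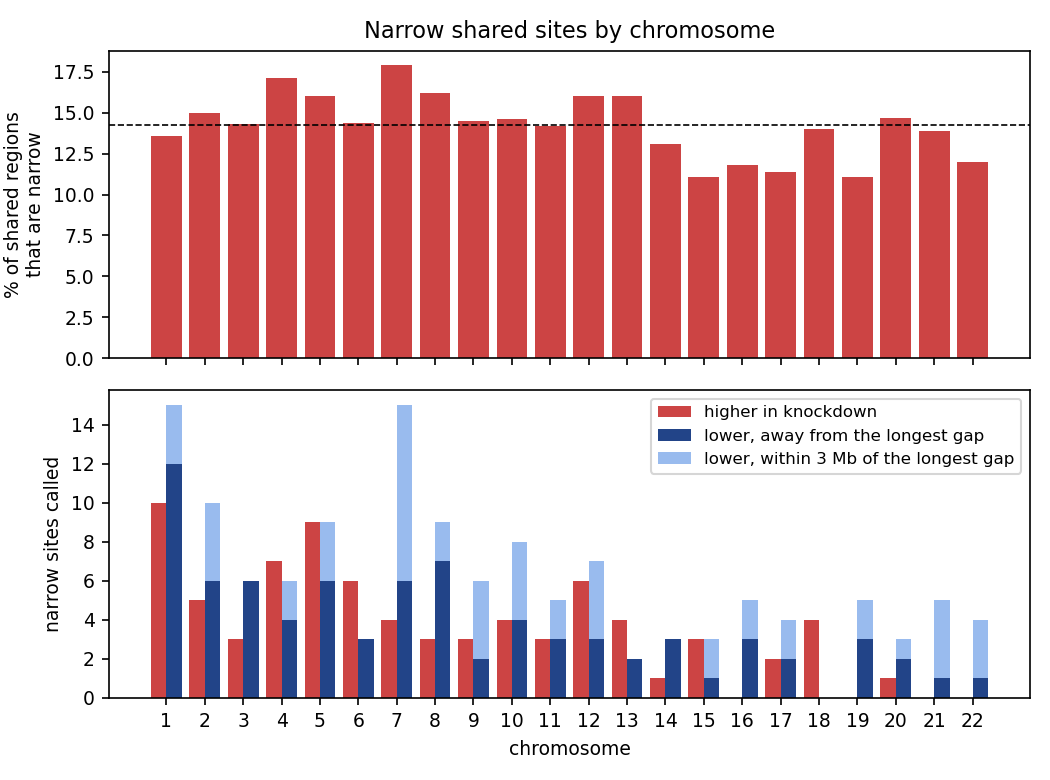
Share of each autosome's shared regions that are narrow (upper panel, percent, dashed line at the 14.3% over all) and number of narrow sites called by limma (lower panel), higher in knockdown in red and lower in blue, with those within 3 Mb of the longest gap in light blue. Shares run from 11.1% on chromosomes 15 and 19 to 17.9% on chromosome 7, where 9 of 15 lower sites lie beside the gap.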

How the data were processed

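The members, lists and rules were chosen with earlier results of these data known. The authors deposited 1 peak list per library, with positions and an integer score whose meaning is not given in the sources used here. Peak names begin with MACS and name 1 library, per the files, which points to calling library by library. The submitters' processing notes name Bowtie2 2.4.5, bedtools 2.30.0 and hg19, with no role or order. The caller's version and threshold, the handling of duplicates and any Tn5 shift: not given in the sources used here.

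A region's score in a library was its highest peak score. Ties shared the mid-rank. Percentiles were taken within each list and among the 27889 shared autosomal regions. The latter became normal scores for limma 3.58.1 (trended, robust, group only, R 4.3.3, Benjamini-Hochberg over all regions). The merging and the fit were tested on simulated data. Distances run between edges. The longest gap was sought from the first base, and the choice of 3 Mb beside it was made with the data in view. All else ran in Python 3.11.15 with pandas 2.3.3, numpy 2.4.6 and scipy 1.17.1.

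Named sites were the 5 strongest and 5 weakest by their lowest and highest list percentile, the 8 largest called rises and falls with separate groups, the 3 narrowest, the closest pair, and the 3 chromosomes at each end of the narrow share. Alternatives were other width limits, equal lists, other overlap rules, scores, ranks and fits, a block for the replicate number, and each library left out in turn. Chromosomes X, Y and M were left out by the rule. No promoter or miRNA sequence was used, because those at hand are of another build.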

Additional observations from a re-analysis of the deposited data

How the results depend on the processing

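Depth is unknown and limits every rank, and the scores of narrow sites were coarsest in the control libraries. Against 78 narrow sites higher and 133 lower by limma, there were 24 and 83 under 400 bp, 165 higher under 600 bp, 42 higher with the score of the widest peak, 46 and 83 where peaks cover 50% of the region, 35 higher when ranked among narrow sites only, 37 and 79 on the percentile scale, 14 and 57 without trended and robust variances, and 80 lower without the flanks of the longest gaps, an alternative chosen after seeing the data. All 14, 37 and 35 of these smaller higher counts but 1 were among the 78. With lists of equal length there were 56 and 93 of 2975 sites, of which 56 and 84 were among the 78 and 133. With 1 library left out, higher calls ran from 6 to 196 and lower calls from 66 to 217. Here and below, the shares of all shared regions were not counted for the alternative settings.

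Separate groups among shared regions (467 above, 443 below) became 170 and 229 under 400 bp, 925 and 711 under 600 bp and 207 and 191 at 50% cover, and ran from 588 to 847 and from 563 to 745 with 1 library left out, when fewer libraries had to meet the condition. Within the lists (1812 above, 115 below) they became 711 and 71, 3303 above, 562 and 76, and 399 and 292 with equal lists, and ran from 1891 to 2482 and from 131 to 174. The difference in median list percentile of 19.6 was 3.28 with equal lists and 17.7 to 23.4 with 1 library left out. The number of sites was 1680 under 400 bp, 6950 under 600 bp and 1413 at 50% cover. The distance to the nearest shared region was 77285 bp at 50% cover, where fewer regions remained to be neighbours, against 20997 bp. Counts under other widths or covers differ because other sites are counted. Other causes were not tested.

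With the replicate number as a block, 120 sites were higher and 159 lower. Deviations from the group means correlated by 0.03, 0.05 and 0.11 between same-numbered libraries. Between libraries of different number they correlated by 0.06, -0.08, -0.01, -0.03, -0.02 and -0.11. The same-numbered values were all positive but small. The number was not taken to pair the libraries, and whether it does was not tested. Of 229 alternative values of the 16 named rises and falls, 215 stayed under the threshold, 14 did not, all of them rises, and 0 reversed. The rise at chromosome 6:50236729-50237215 stayed under it in 8 of 14. Merging touching peaks changed nothing.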

Other observations

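The 3 narrowest shared sites ranked above the median narrow site in all control libraries, except for 1 site in control replicate 3. Chromosome 12:41757437-41757586 (150 bp) had percentiles among shared regions of 86.9, 84.9 and 81.4 in control and 68.5, 67.7 and 68.6 in knockdown. The groups did not overlap, but limma's adjusted p was 0.0845. Chromosome 1:38077348-38077502 (155 bp) had 69.0, 78.8 and 48.6 in control and 49.6, 43.8 and 50.9 in knockdown, which overlap. Chromosome 19:27769132-27769280 (149 bp), within 3 Mb of a longest gap, had 62.7, 67.0 and 15.1 in control and 3.45, 12.8 and 19.2 in knockdown. There control replicate 3 stood with the knockdown libraries.

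The closest pair of narrow sites was on chromosome 19, at 46148694-46149170 and 46149284-46149641, with 113 bp between them. The first had 62.7, 71.5 and 68.4 in control and 53.1, 52.3 and 79.2 in knockdown, and the second 22.5, 30.9 and 7.94 in control and 5.45, 11.1 and 8.16 in knockdown. The first outranked the second in all 6 libraries, and at neither did limma call a difference (adjusted p = 0.792 and 0.472).

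The most isolated narrow sites, chosen after their values were seen, had no other shared region for over a megabase. Chromosome 21:25231200-25231518 was 1649 kb from the nearest one, chromosome 5:19988007-19988462 was 1471 kb away and chromosome 13:56545768-56545929 was 1334 kb away. The last of these ranked high, at 86.9, 84.9 and 86.8 in control and 56.2, 59.9 and 76.2 in knockdown (limma adjusted p = 0.0344). The site on chromosome 21 had 13.0, 36.5 and 30.9 in control and 15.6, 14.5 and 39.1 in knockdown (limma adjusted p = 0.883). That on chromosome 5 had 36.7, 55.0 and 38.5 in control and 53.1, 40.1 and 50.9 in knockdown (limma adjusted p = 0.848). In both, the groups overlapped. Nearby regions that were not called in every library lay 66.9, 85.3 and 45.6 kb from the sites on chromosomes 21, 5 and 13. The 3 longest runs of narrow sites with no wider shared region between them had 5 sites each and spanned 143 kb from chromosome 10:97084300, 145 kb from chromosome 2:91599285 and 1328 kb from chromosome 7:53286751.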
